A study of Mus musculus with 2 samples.

Results

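A pair of miRNAs that lie inside genes for neurotransmitter receptors, miR-490 in *Chrm2* and miR-592 in *Grm8*, were examined in small RNA libraries from the muscle wall (tunica muscularis) of the mouse jejunum with and without *Dnmt1*. The members were all mature entries carrying these names, 3 of the 1147 entries on the deposited table: mmu-miR-490-5p, mmu-miR-490-3p and mmu-miR-592-5p. The pair of miRNAs was selected on the difference between *Dnmt1*-WT and *Dnmt1*-KO in these same libraries, where miR-490-5p and miR-592-5p were among the lowest KO/WT ratios, so those ratios describe the choice and carry no test. The products of miR-133a and miR-145a were set beside them as muscle references.

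There was 1 library for each genotype, made from C57BL/6 mice aged 15 days. *Dnmt1*-KO mice carried the smMHC Cre-eGFP transgene, in which the *Myh11* promoter drives *Cre* recombinase and *eGFP* in smooth muscle cells, with both *Dnmt1* alleles floxed and deleted in the cells that express *Cre*. *Dnmt1*-WT mice carried the same transgene with intact *Dnmt1*, as the study's text names them. For both samples the labels give the floxed strain, Dnmt1lox/lox on the Myh11-cre,-EGFP line. The description of the WT sample also states the deleted genotype, against its title and genotype label, and the last were followed. For the RNA, the methods name animals of both sexes for each genotype and do not say whether their samples were pooled. Pooling is stated there for the DNA samples only. A single library per genotype shows no spread between animals, so the intervals below are 95% limits of counting error only. *Dnmt1* mRNA is not measured by such libraries, so the genotype labels were not checked.

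A miRNA is cut from a hairpin-shaped precursor, and either arm of the hairpin (5p or 3p) can be loaded into the silencing complex, where bases 2 to 8, the seed, pair with target mRNAs. *Chrm2* encodes the M2 muscarinic acetylcholine receptor, which is abundant in gastrointestinal smooth muscle and takes part in its contraction by cholinergic nerves. *Grm8* encodes metabotropic glutamate receptor 8, a receptor that lowers cyclic AMP and is best known at nerve terminals. miR-133a is a miRNA of muscle cells, and miR-145a, which shares a cluster with miR-143, is a hallmark of differentiated smooth muscle.

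The mature sequences are shown first because the results turn on the difference between arms, with RefSeq (GRCm38.p6) as the source and the seed in capitals, 5′ to 3′.
mmu-miR-490-5p: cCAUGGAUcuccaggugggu
mmu-miR-490-3p: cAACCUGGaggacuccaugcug
mmu-miR-592-5p: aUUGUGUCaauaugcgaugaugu

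The 3 seeds differ from one another, and no other of the 1679 mature mouse miRNA names in the RefSeq table carries any of them, so the members form no seed family with each other or with another miRNA of that table. The miR-490 products are rich in G and C (60% of bases in the 5p and 59.1% in the 3p product), in contrast to 34.8% in miR-592-5p. The other arm of the miR-592 hairpin, miR-592-3p, had no entry among the 1147 listed, each of which was above 0 in at least 1 library.

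The precursors are shown with their mature arms in capitals, so that the place of each product on its hairpin can be seen.
Mir490: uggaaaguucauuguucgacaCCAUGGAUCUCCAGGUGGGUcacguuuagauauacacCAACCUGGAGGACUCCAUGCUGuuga
Mir592: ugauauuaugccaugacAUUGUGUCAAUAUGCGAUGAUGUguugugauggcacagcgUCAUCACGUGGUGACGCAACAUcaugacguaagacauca

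On GRCm38, Mir490 lies on chromosome 6 (chr6:36421742-36421825, plus strand), and miR-490-5p occupies bases 22 to 41 of the 84-base hairpin and miR-490-3p bases 59 to 80. The hairpin is within an intron of both *Chrm2* transcripts that span it, on the strand of *Chrm2* (chr6:36388084-36528414). Mir592 lies on the same chromosome (chr6:27936655-27936750, minus strand), with miR-592-5p at bases 18 to 40 of 96. It is on the strand of *Grm8* (chr6:27275119-28135178), in an intron of 4 of the 5 *Grm8* transcripts that span it and within exon 6 (27934377 to 27937668) of the fifth, a transcript annotated without a coding region. The host mRNAs are not measured by small RNA libraries.

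The deposited values are scaled read counts. Of the values from 20 to 300, 88.6% in WT and 91.1% in KO were whole multiples of a step close to 1, which was taken as 1 read, and the rest were fractional. The *Dnmt1*-WT library totalled 5741906 and the *Dnmt1*-KO library 4754677. Ratios are given on this deposited scale and, where stated, with equal totals, which adds 0.27 to every log2 KO/WT value. Each read covers a whole mature product, so levels are given as reads per product.

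miR-490-3p was the main product of its hairpin, at 8896 in *Dnmt1*-WT and 6430 in *Dnmt1*-KO. The KO/WT ratio was 0.723 (interval 0.700 to 0.746), a change of -27.7%, and it stood at 0.873 (0.845 to 0.901) with equal totals. It ranked 49th of all entries in WT and 56th in KO, so it was an abundant miRNA in both libraries.

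miR-490-5p, from the other arm of that hairpin, was at 1294 in WT and 308.1 in KO. This is a ratio of 0.238 (0.210 to 0.270), a change of -76.2%, and 0.288 (0.253 to 0.326) with equal totals. Its rank by abundance went from 125 in WT to 212 in KO.

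miR-592-5p was the least abundant member, at 362.0 in WT and 93.7 in KO. The ratio was 0.259 (0.204 to 0.326), a change of -74.1%, and 0.313 (0.246 to 0.393) with equal totals. Its rank went from 199 to 327. All 3 members were lower in *Dnmt1*-KO on both scales, and both 5p products stood at 0.238 and 0.259 of their WT value, far below the 3p product of miR-490.

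**Figure D1:**
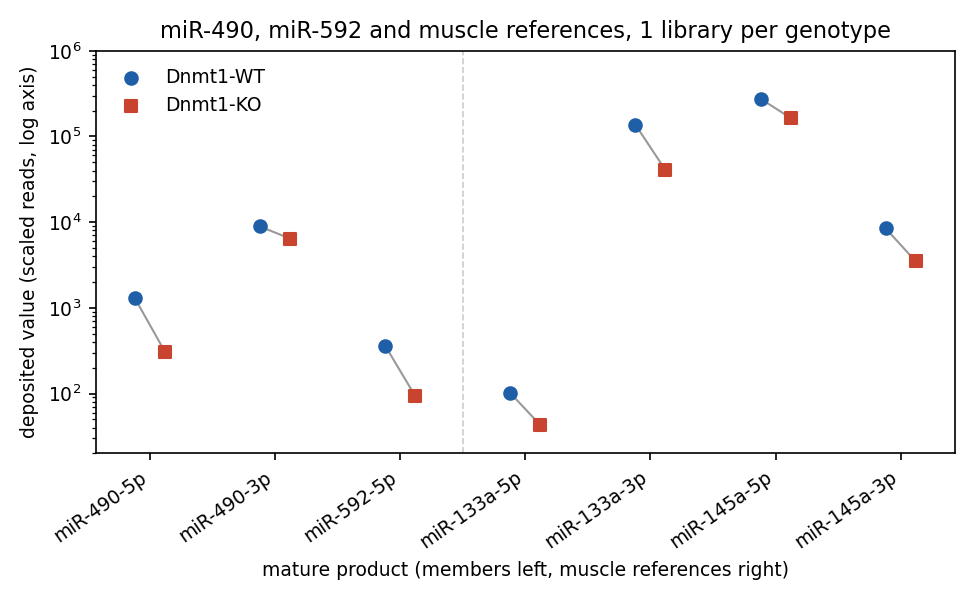
Deposited values (scaled reads, log axis) of the miR-490 and miR-592 products (left of the dashed line) and of the miR-133a and miR-145a products (right), with circles for the Dnmt1-WT library and squares for the Dnmt1-KO library. Every product was lower in KO, from 8896 to 6430 for miR-490-3p and from 1294 to 308.1 for miR-490-5p.

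Scaled to a library total of 1000000 reads (RPM), miR-490-3p was at 1549 in WT (1517 to 1582) and 1352 in KO (1320 to 1386). miR-490-5p was at 225.3 (213.2 to 237.9) and 64.8 (57.8 to 72.5). miR-592-5p was at 63.0 (56.7 to 69.9) and 19.7 (15.9 to 24.1). The order of the levels was thus miR-490-3p, miR-490-5p and miR-592-5p in both libraries, with no overlap between the intervals of neighbours in either library.

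Of the 3 members, 2 were at least 2-fold lower in *Dnmt1*-KO, namely both 5p products. The background was 28 of the 316 entries whose mean over both libraries reached 100, or 8.86%, and 4.75% with equal totals, where the same 2 members qualified. Since the members were chosen from this contrast, nothing is read from their count. Among those 316 entries, miR-490-5p had the third lowest and miR-592-5p the fifth lowest ratio, whereas 86 entries lay below miR-490-3p. The 313 entries of that set detected in each library had a median ratio of 0.976.

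Both receptor-hosted 5p products were chosen for their low ratios, so the likeness of the ratios is part of that choice. The KO/WT ratio of miR-490-5p was 0.920 times that of miR-592-5p, with a counting interval of 0.706 to 1.21. The products of a single hairpin, miR-490-5p and miR-490-3p, had ratios of 0.238 and 0.723.

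The arms of miR-490 were compared within each library, since no choice of scale affects their share. The 5p product made up 12.7% (exact interval 12.1 to 13.4%) of the miR-490 reads in *Dnmt1*-WT and 4.57% (4.09 to 5.10%) in *Dnmt1*-KO, a difference of -8.12 percentage points. There were 6.88 reads of the 3p product for each 5p read in WT and 20.9 in KO. The ratio of the 5p product was 0.330 (0.289 to 0.375) of that of the 3p product. Summed over both arms, miR-490 was at 10190 in WT and 6738 in KO, for which the ratio was 0.661 (0.641 to 0.682) on the deposited scale and 0.799 with equal totals. Most reads came from the 3p arm, so the sum was nearer to its ratio.

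Arms at least 2-fold apart in KO/WT were found in 12 of the 62 hairpins whose products both reached a mean of 100, which is 19.4%. The arms of miR-490 were 1.60 log2 units apart, the second largest difference after miR-125a (1.69), against a median of 0.49. The hairpin was chosen for the low ratio of its 5p product, which enters this difference, so the arm values and their rank are a description of that choice. With a minimum mean of 10 it ranked 10th of 152 hairpins, and it could not be ranked with a minimum of 1000, which the 5p product did not reach. In 34 of the 62 hairpins (54.8%) the less abundant arm had the lower ratio, as in miR-490, and in 7 it was at least 2-fold lower.

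miR-143, the abundant smooth muscle miRNA, showed a like pair of ratios, a resemblance noticed after its values were seen. Its 5p product had a ratio of 0.259 (0.251 to 0.267) and its 3p product 0.694 (0.692 to 0.695). The ratio of miR-490-5p relative to miR-143-5p was 0.920 (0.807 to 1.05). That of miR-490-3p relative to miR-143-3p was 1.04 (1.01 to 1.08). The 5p share of miR-143 was 1.07% in WT and 0.402% in KO, far below that of miR-490 in both libraries.

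**Figure D2:**
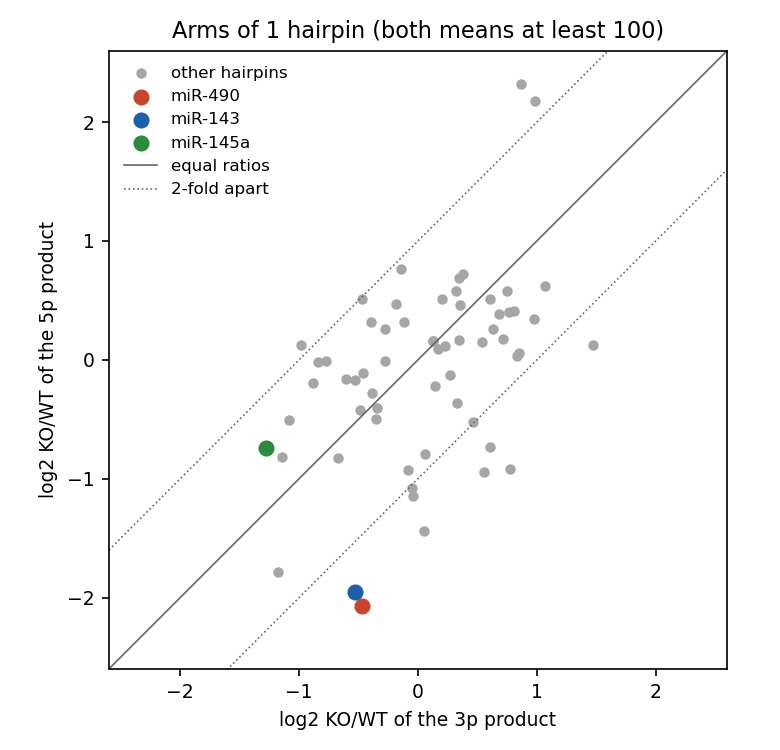
The log2 KO/WT of the 5p product (vertical) against that of the 3p product (horizontal) for the 62 hairpins whose products both reached a mean of 100, where the solid line marks equal ratios and the dotted lines arms 2-fold apart. miR-490 (-2.07 for 5p, -0.47 for 3p) lies beside miR-143 below the lower dotted line, and miR-145a lies above the solid line.

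Among the muscle references, miR-133a-3p was at 137241 in WT and 40502 in KO. The ratio was 0.295 (0.292 to 0.298), and 0.356 with equal totals. Its minor product miR-133a-5p was at 101.3 and 42.9, or 0.423 (0.289 to 0.611) of the WT value, and 0.511 with equal totals. The ratio of miR-133a-3p was thus above those of miR-490-5p (0.238) and miR-592-5p (0.259), and lay within the counting interval of miR-592-5p only. The few reads of miR-133a-5p leave a wide interval.

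miR-145a-5p, the main product of miR-145a, was at 275275 in WT and 164499 in KO, a ratio of 0.598 (0.594 to 0.601). Its minor product miR-145a-3p was at 8447 and 3488, a ratio of 0.413 (0.397 to 0.430). In miR-145a, as in miR-490 and miR-143, the less abundant arm was the lower of the pair, although the arms were only 0.53 log2 units apart. In miR-133a the less abundant arm had the higher ratio, and the interval of the difference between its arms (5p relative to 3p 1.44, 0.980 to 2.07) includes 1.

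**Figure D3:**
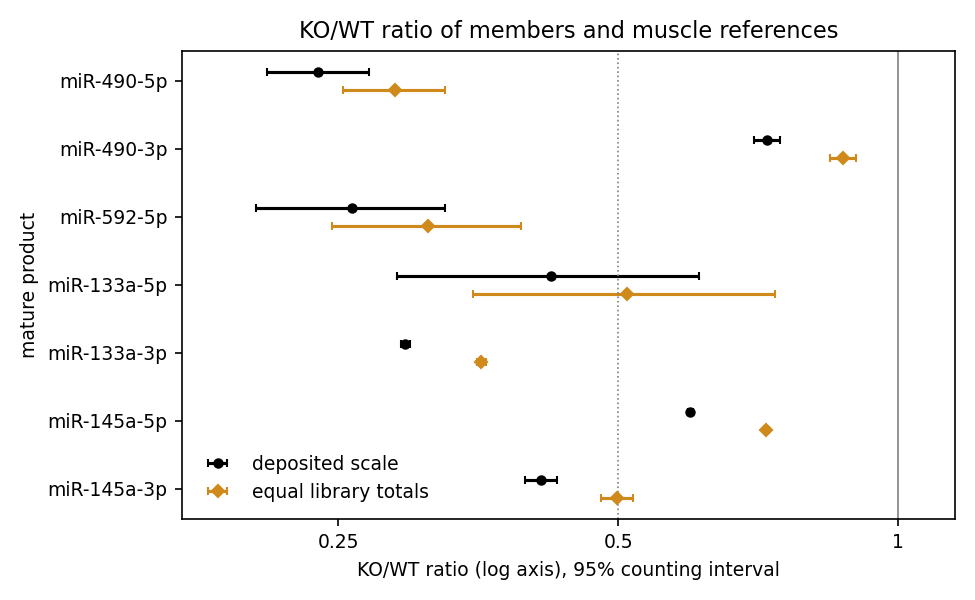
KO/WT ratio (log axis) of each product with its 95% counting interval, on the deposited scale (black circles) and with equal library totals (orange diamonds), where the solid line marks 1 and the dotted line 0.5. miR-490-5p and miR-592-5p lie below 0.5 with their whole intervals on both scales, and miR-490-3p at 0.723 and 0.873.

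Setting each member against a reference removes the scale from the comparison. For each 1000 reads of miR-133a-3p there were 9.43 reads of miR-490-5p in WT and 7.61 in KO, a relative ratio of 0.807 (0.710 to 0.915). For miR-592-5p the values were 2.64 and 2.31, a relative ratio of 0.877 (0.691 to 1.10). miR-490-3p went the other way, with 64.8 and 158.8 reads per 1000 of miR-133a-3p, a relative ratio of 2.45 (2.37 to 2.53).

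Against miR-145a-5p, miR-490-5p stood at a relative ratio of 0.399 (0.351 to 0.452) and miR-592-5p at 0.433 (0.342 to 0.545). For each 1000 reads of miR-145a-5p, miR-490-5p was at 4.70 in WT and 1.87 in KO, and miR-592-5p at 1.32 and 0.570. miR-490-3p was at 32.3 and 39.1, a relative ratio of 1.21 (1.17 to 1.25). Within the libraries, both 5p products were therefore lower relative to miR-145a-5p in KO, and miR-490-3p was higher relative to both references.

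The entries most like each member were taken as the 3 nearest in log2 KO/WT among the 310 other entries of that set that were detected in each library, a likeness over 2 libraries only. For miR-490-5p and for miR-592-5p these were the same 3: miR-143-5p, the hairpin entry mir-6240 (1150 in WT, 310.1 in KO, ratio 0.270) and miR-17-5p (1322 and 383.9, ratio 0.290). For miR-490-3p they were miR-365-3p (ratio 0.723), let-7e-3p (0.724) and miR-152-3p (0.721). Ratios within the counting interval of miR-490-3p were held by 13 of the 310 entries, against 2 for miR-490-5p and 6 for miR-592-5p. The intervals differ in width and both 5p products were chosen for their low ratios, so nothing is read from these counts.

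Both hairpins are on chromosome 6, 8.48 Mb apart and on opposite strands. RefSeq places 7 other miRNA hairpins between them, those of miR-129-1, miR-182, miR-96, miR-183, miR-335, miR-29a and miR-29b-1, and of their 12 listed products 8 had a mean of at least 100. Of these 8, 4 were higher and 4 lower in KO on the deposited scale, and 6 were higher with equal totals. The pair that changed sides was miR-335-3p, at 0.922 (0.820 to 1.04) on the deposited scale, and miR-129-1-3p, at 0.971 (0.774 to 1.20) and assigned to its hairpin by name. miR-182-5p, a miRNA of sensory and epithelial cells, was at 227.6 in WT and 387.9 in KO (ratio 1.70, 1.44 to 2.02), and miR-335-5p, from an intron of the imprinted gene *Mest*, at 3332 and 4163 (1.25, 1.19 to 1.31). miR-29a-3p, the nearest to miR-490 of the abundant ones that come from a single locus, was at 3072 and 1531 (0.498, 0.468 to 0.530). miR-29b-3p, at 150.4 and 71.8 (0.477, 0.355 to 0.636), also comes from a second locus, as does miR-129-5p (1706 and 2182, ratio 1.28). The stretch between the members therefore held products on both sides of 1. On the deposited scale, 2 of the 8 (miR-29a-3p and miR-29b-3p) were at least 2-fold lower, beside 8.86% of all 316 entries. At least 2-fold higher were 0 of the 8, beside 6.33%. miR-490-5p and miR-592-5p were chosen for their low ratios, so their contrast with these products is part of that choice. A link between ratio and place on the chromosome was not tested.

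**Figure D4:**
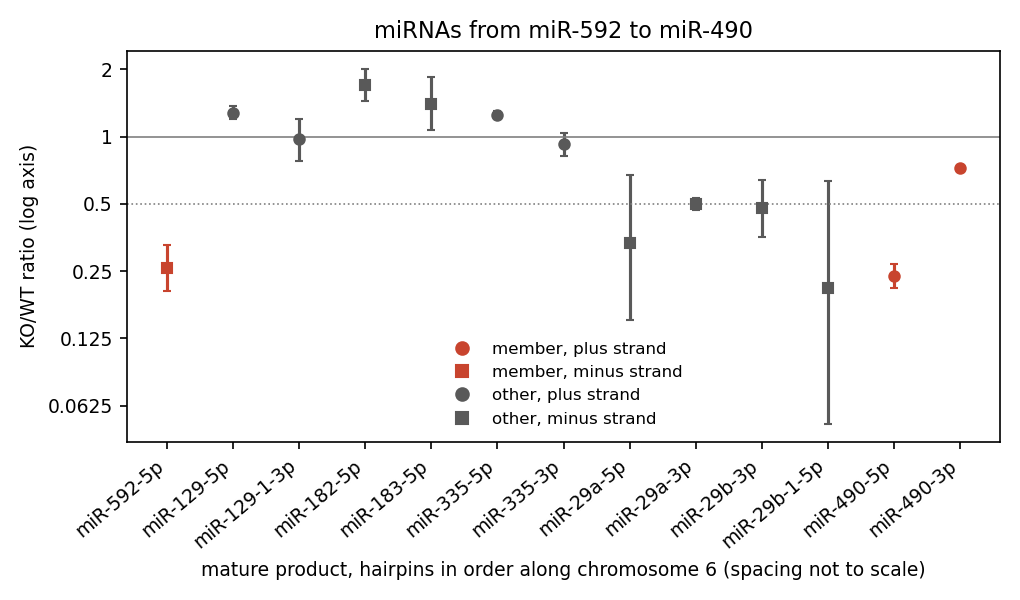
KO/WT ratio (log axis) on the deposited scale with 95% counting intervals for listed products with a mean of at least 10, with hairpins in their order on chromosome 6 from miR-592 to miR-490 (spacing not to scale); red marks miR-490 and miR-592, and circles and squares the plus and minus strand. miR-129-5p, miR-182-5p, miR-183-5p and miR-335-5p lie above 1, the intervals of miR-129-1-3p and miR-335-3p include 1, and the miR-29 products lie near or below the dotted line at 0.5.

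Other miRNAs in receptor or channel genes were looked up as a set of 11 miRNAs listed under *Trpm3*, *Trpm1*, *Gabre*, *Gabra3*, *Htr2c* and *Ptprn2*. The annotation placed all of them in these genes except miR-1264, for which no hairpin was matched and whose entries held 5 reads or fewer. Their 17 listed entries summed to 2974 in WT and 2716 in KO, a ratio of 0.913 on the deposited scale and 1.10 with equal totals, so its direction flipped with the scale. Only 3 entries reached a mean of 100. miR-204-5p (in *Trpm3*, a cation channel gene) was at 2116 and 2194, a ratio of 1.04. miR-224-5p (in *Gabre*, a GABA receptor subunit gene) was at 567.6 and 360.0, a ratio of 0.634. miR-153-3p (in *Ptprn2*, a receptor-type phosphatase gene) was at 213.6 and 95.7, a ratio of 0.448. Of the 3, only miR-153-3p was at least 2-fold lower, and it was not with equal totals, beside 8.86% of all entries (4.75% with equal totals).

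The muscle wall holds other cells than smooth muscle, and in bulk tissue fewer cells of a type and less RNA per cell cannot be told apart. The smooth muscle list held miR-143, miR-145a, miR-145b, miR-133a, miR-133b and miR-1a. Its entries with a mean of at least 100 were both arms of miR-143 and of miR-145a, miR-133a-3p and miR-133b-3p. These 6 entries, which are not 6 separate miRNAs, were all lower in KO. Their median log2 ratio was -1.01, against -0.03 over the 313 entries. At least 2-fold lower were 3 of them (miR-143-5p, miR-145a-3p and miR-133a-3p), beside 8.86% of all 316 entries (4.75% with equal totals). Of the sparser entries of the list, miR-145b (30.6 in WT, 50.4 in KO) was higher and miR-1a-3p (124.4 and 58.8) lower. The whole list made up 38.6% of the WT library and 30.4% of the KO library, so markers of the labelled tissue were plentiful in both. Most of that share was miR-143-3p alone, at 1.78e+06 of the list sum of 2.22e+06 in WT and 1.23e+06 of 1.45e+06 in KO. miR-208b-3p, the only entry of the skeletal and heart muscle list with a mean of at least 100, was at 992.8 and 301.2 (ratio 0.303), while miR-206 of that list had no entry and miR-499-5p was at 6 and 2.

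The leukocyte list (miR-142a, miR-223, miR-150, miR-342, miR-146a, miR-146b and miR-155) moved the other way. Of its 9 entries with a mean of at least 100, 8 were higher in KO and 3 at least 2-fold (5 with equal totals). The median log2 ratio of the 9 was 0.79. The list sum was 19010 in WT and 29351 in KO (ratio 1.54, or 1.86 with equal totals). Of that sum, miR-146a-5p alone gave 11058 in WT and 13890 in KO. Over all 316 entries, 6.33% were at least 2-fold higher, and 13% with equal totals. The most abundant entries of the list were miR-146a-5p (ratio 1.26), miR-342-3p (1.20), miR-146b-5p (2.85) and miR-142a-5p (5.01), the last a product of blood cells. The neural list, of interest because *Grm8* is a neuronal receptor gene, had 10 of 13 such entries lower and 2 at least 2-fold lower (6 and 0 with equal totals), beside 8.86% (4.75%) of all entries at least 2-fold lower, with a sum ratio of 0.821 that became 0.991 with equal totals. Its median log2 ratio was -0.15, and 0.12 with equal totals, so the sign flipped. The abundant neural entries ran from miR-138-5p (0.453) through miR-7a-5p (0.686), miR-7b-5p (0.714), miR-218-5p (0.898), miR-128-3p (0.965) and miR-9-5p (1.09) to miR-129-2-3p (1.26) and miR-129-5p. The epithelial list had 4 of 7 lower and none at least 2-fold, with a sum ratio of 1.25 (1.51 with equal totals). With equal totals 0 of the 7 were lower and 1 was at least 2-fold higher, and the median log2 ratio flipped from -0.03 to 0.24. Of its abundant entries, miR-192-5p had a ratio of 1.79, miR-215-5p 0.977 and miR-194-5p 0.958. The part of these shifts in the values of miR-490 and miR-592 was not tested.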

How the data were processed

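Small RNA libraries (TruSeq Small RNA kit) were made from jejunal muscle at 15 days, 1 library for *Dnmt1*-WT and 1 for *Dnmt1*-KO. The authors deposited 1 table of expression values, and per the methods a commercial provider did the sequencing and GRCm38/mm10 was the reference genome. Bowtie is listed in the submitters' processing notes. Its version, the source of miRNA names, how multiply matching reads were counted and the scaling are not given in the sources used here. Of the values from 20 to 300, 88.6% of 229 in WT and 91.1% of 248 in KO were whole multiples (within 0.06) of a step of 1.00286 and 0.99721, so deposited values were divided by the step to give implied reads (5725531 and 4767980). The rest were fractional. The deposited column of the authors' fold change was not used.

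Ratios are KO over WT with no pseudocount. Intervals are 95% Clopper-Pearson limits of the KO share of the rounded implied reads. Ratios relative to another miRNA carry exact conditional odds ratio limits. The reads carry no molecular identifiers and may be copies of 1 molecule, so these limits cover counting error only. No p-value was computed. Scripts ran in Python 3.11.15 with scipy 1.17.1 and were tested on simulated data. Hosts came from GENCODE M21, and sequences from RefSeq, which matched 918 of 1147 entries. Genes were named by a fixed rule: all products of the members and references, the 3 nearest entries in log2 ratio, chromosomal neighbours, shared seeds and list members whose mean reached 1000. Other list entries, and miR-143 as a set of arms, were named after their values were seen. The members and lists were chosen with earlier results of these data known.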

Additional observations from a re-analysis of the deposited data

How the results depend on the processing

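All members and references were lower in *Dnmt1*-KO under each scaling and pseudocount tried, and 2 of 3 members were at least 2-fold lower under all 5 alternatives. Sums over both arms were added after seeing the data. With equal totals, the ratios were 0.873 for miR-490-3p, 0.288 for miR-490-5p, 0.356 for miR-133a-3p, 0.722 for miR-145a-5p and 0.499 for miR-145a-3p. With equal totals without miR-143-3p they were 0.814 for miR-490-3p, 0.332 for miR-133a-3p, 0.673 for miR-145a-5p and 0.465 for miR-145a-3p. With the median of entries with a mean of at least 100 set to 1 they were 0.302 for miR-133a-3p and 0.612 for miR-145a-5p. These shifts follow from the factor applied. The percent of entries at least 2-fold lower was 8.86%, 23.1% with no minimum mean and 4.75% with equal totals. The arm difference of miR-490 ranked second, and 10th with both arms at a mean of at least 10, where more hairpins enter. With equal totals the list sums had ratios of 0.788 (smooth muscle), 0.367 (skeletal or heart muscle), 1.86 (leukocyte), 0.991 (neural), 1.51 (epithelial) and 1.10 (receptor-hosted). No paired analysis was possible because there was 1 library per genotype. Depth limits miR-133a-5p most, at 43.0 implied reads in KO, and among the members miR-592-5p, at 94.0.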
